A study of Takifugu rubripes with 9 samples.

Results

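The ovary library of adult wild type *Takifugu rubripes* (torafugu, a pufferfish) was set against the 6 somatic tissues whose annotated small RNA reads were analysed here, which were intestine, eye, brain, heart, liver and slow muscle. It was chosen as the ovary sample among 9 labelled samples, 8 of which were read here, and it was compared with the highest, the median and the lowest somatic library for each miRNA. Every tissue was sequenced as 1 SOLiD small RNA library with no replicate, so no difference between tissues was tested, and intervals cover counting error only. Fast muscle was not analysed here, and testis is given only beside ovary results. All libraries were made from total RNA of fish of the same genotype. The tissues came from a pair of adult fish, and whether a library pooled both is not given in the sources used here. If that pair gave both ovary and testis, each gonad library came from 1 fish, and gonad and individual cannot be told apart.

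MicroRNAs are short RNAs cut from hairpin precursors, and each hairpin has a 5′ arm and a 3′ arm from which a mature miRNA can arise. Bases 2 to 8 of the mature strand, the seed, do most of the pairing with target mRNAs, so miRNAs that share a seed form a family. The vertebrate ovary holds oocytes inside follicles of granulosa and theca cells, together with stroma, smooth muscle, vessels and blood, and a library of the whole organ mixes them all. In such a bulk library, fewer cells of a type and less of a miRNA per cell cannot be told apart.

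The unit followed here is a miRNA name with its arm, for example miR-26-5p. Reads whose match type named a precursor and no mature sequence were kept apart as precursor-only. Some of these share the seed of a mature name and differ from it in their ends, as for miR-21 and miR-214. Of 631 names with reads in any library, 385 had reads in ovary. Levels are reads per 1000000 annotated miRNA reads of the library (CPM).

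The sequences below carry the main results. Each is the most abundant form of its name in ovary unless another library is named, except the second form of miR-202, which is the 21-nt form that pairs with the first. They are written as the DNA letters of the reads with the seed in capitals, and the pairs show shared seeds, alternative arms and different ends.
miR-202, first form: tTCCTATGcatataccttttt
miR-202, second form: tTCCTATGcatatacctcttt
miR-202-3p: aGAGGCATagggcatgggaaa
miR-145-5p: gTCCAGTTttcccaggaatccc
miR-143-3p: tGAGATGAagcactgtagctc
miR-223-3p: tGTCAGTTtgtcaaatacccca
miR-199-5p: cCCAGTGTtcagactacctgt
miR-199 precursor-only: aCAGTAGTctgcacattggtta
miR-26-5p, somatic libraries: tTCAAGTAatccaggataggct
miR-26-5p, ovary: tTCAAGTAatccaggatag
miR-26b-5p: tTCAAGTAatccaggataggtt
let-7a-5p: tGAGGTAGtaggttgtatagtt
let-7g-5p: tGAGGTAGtagtttgtatagtt
miR-130-3p: cAGTGCAAtattaaaagggc
miR-124-3p, brain and eye: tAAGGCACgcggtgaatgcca
miR-2478-3p: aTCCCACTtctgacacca

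The ovary library held 537629 annotated reads, against 437295 to 1207961 reads in the somatic libraries, so 3 reads corresponded to 5.58 CPM in ovary and to 2.48 to 6.86 CPM in the others. Reads of miR-145 and its lettered members made up 58.4% of the ovary total (95% Wilson interval 58.3 to 58.5), against 2.60% to 16.5% of the somatic totals. The 10 most abundant names took 77.5% of the ovary reads, against 51.4% to 74.4% of the somatic reads. The effective number of names, the exponential of the Shannon entropy of their shares, was 10.3 in ovary and 18.3 to 47.2 in the somatic libraries. With miR-145 left out it was 52.6 in ovary and 18.97 to 46.2 in the somatic libraries, so that ovary was highest by this measure. The number of names that held 90% of the reads without miR-145 was 54 in ovary, inside the somatic range of 40 to 58.

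This weight of 1 miRNA moves every other ovary level. Across 172 names at 100 CPM or more in ovary or as the somatic median, the median log2 ratio of ovary to the somatic median was -0.23. It was 1.09 over 200 names when miR-145 was left out of each total. On the total of all 18 to 25 nt reads that the study used, annotated or not, it was -2.22 over 119 names, and only 2 names, both of miR-202, were at least 2-fold above every somatic library. On that total miR-143-3p, miR-145b-5p, miR-223-3p, miR-193-3p, miR-24c-3p, miR-20a-5p and miR-1260-5p were not above the highest somatic library. Changes below are given first on the total of all annotated reads and then, where it matters, on the total without miR-145.

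On the first total, 14 names were at least 2-fold above the highest somatic library, which was 9.59% of the names at 100 CPM or more in ovary. At least 2-fold below the lowest library were 15 of 104 names (14.4%). Without miR-145, 40 and 6 names were past these limits, and they held 12 of the 14 and 6 of the 15. The 2 that dropped out of the first set were the miR-145 names, which that scale leaves out. Against the somatic median, 43 of 172 names (25%) were at least 2-fold higher in ovary and 63 (36.6%) were at least 2-fold lower. Without miR-145 these counts were 104 and 32 of 200 names. The counts of each list below are to be read beside these shares of all names.

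**Figure D1:**
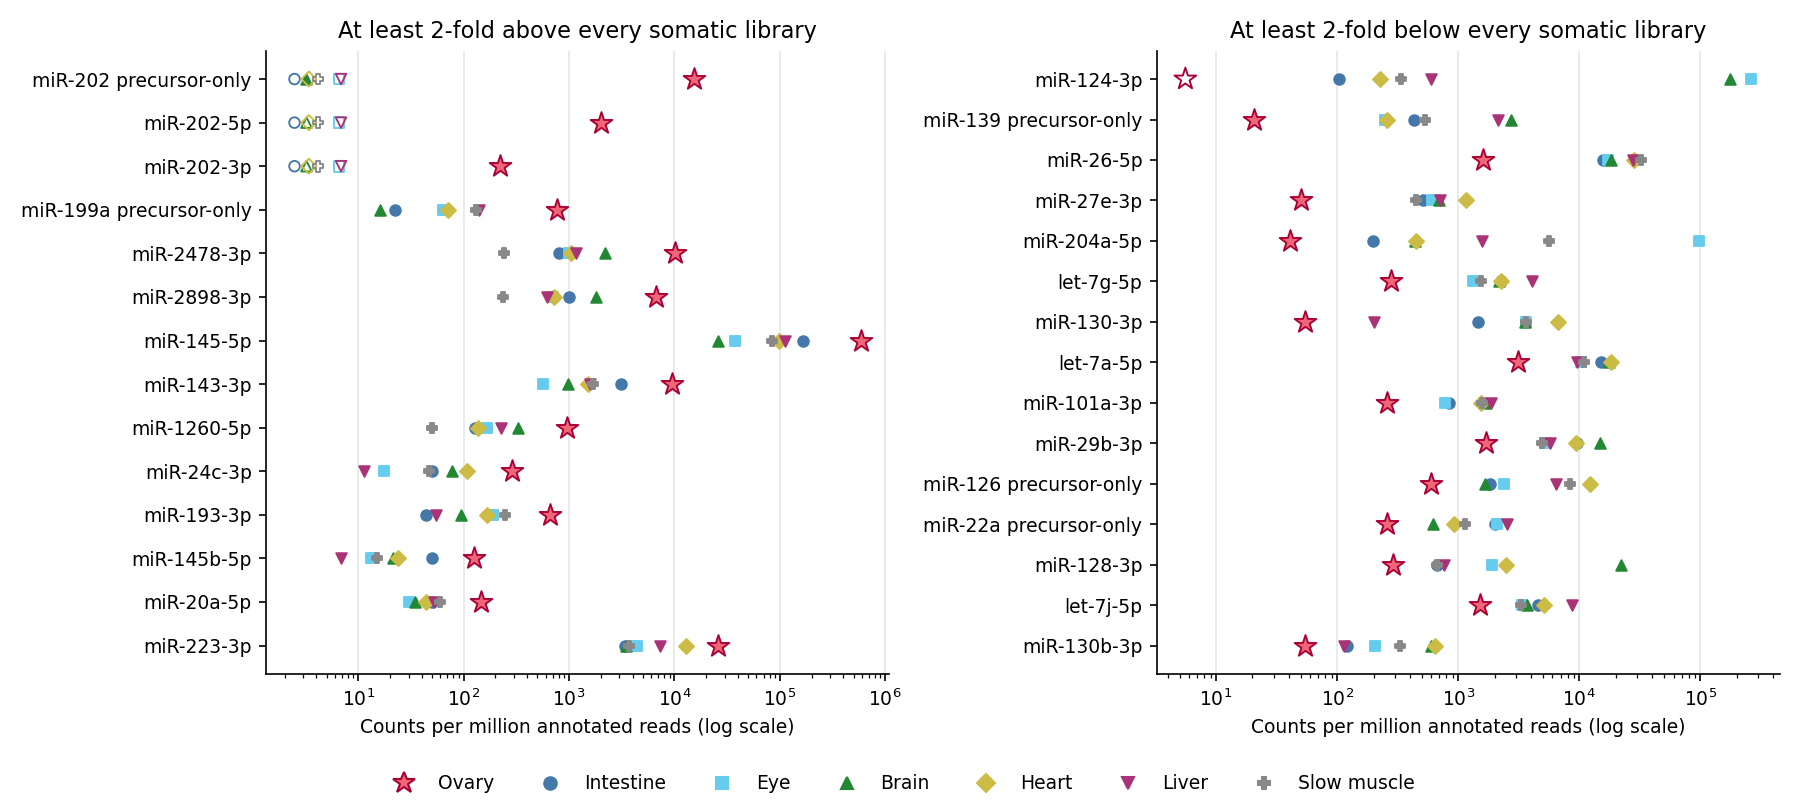
Level of each name at least 2-fold above every somatic library (left) or at least 2-fold below every one (right), in reads per 1000000 annotated reads on a log axis, with 1 symbol per library. Open symbols stand at the level of 3 reads where a library had none, and miR-202 shows the widest gap, with 15273 CPM of its precursor-only reads in ovary against 3.23 CPM in brain.

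The name that set ovary most apart was miR-202, a miRNA known for its expression in vertebrate gonads. Its precursor-only reads stood at 15273 CPM in ovary, while brain had 3.23 CPM (3 reads) and the other somatic libraries had none. The ratio to brain was 4733 (95% Clopper-Pearson interval 1619 to 22954). No somatic library had a read of miR-202-5p or miR-202-3p, which stood at 2031 and 223.2 CPM in ovary and were at least 296-fold and 32.5-fold higher than 3 reads in the somatic library where 3 reads weigh most. Testis, the other gonad, had 4639 CPM of the precursor-only reads, 128.3 CPM of miR-202-5p (7 reads) and 55.0 CPM of miR-202-3p (3 reads). The testis library held only 54540 annotated reads, so low testis levels here and below rest on few reads. The paper found miRNAs to be a smaller part of testis than of ovary small RNAs. The gap between testis and ovary levels thus depends on the total used.

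Nearly all miR-202 reads came from the 5′ arm. In ovary 98.7% of the arm reads were of that arm, and 92.7% of these started at the first base of the sequences shown above. The 2 forms of this arm shared the seed and differed by T18C, counted from the 5′ end of the first form, which matched the pufferfish precursor, while the second matched the zebrafish mature entry. The second form made up 12.1% of the 8440 ovary reads that reach this base (95% Wilson interval 11.4 to 12.8), against 2.30% of the 217 testis reads (0.99 to 5.28). Whether both forms are encoded in the genome was not tested.

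miR-145-5p and miR-143-3p, which are transcribed together in vertebrates and are abundant in smooth muscle, were both above all somatic libraries. miR-145-5p stood at 583322 CPM in ovary, against 25855, 90858 and 164438 CPM as the lowest, median and highest somatic level. This was 3.55-fold above intestine, the highest (3.53 to 3.57). miR-143-3p stood at 9572 CPM in ovary, against 571, 1548 and 3119 CPM, and was 3.07-fold above intestine (2.94 to 3.20). All 4 names of this pair that could be compared were at least 2-fold above the somatic median, against 25% of all names. All but miR-143-3p are miR-145 names, so this count largely repeats the miR-145 result. miR-145b-5p, which shares the seed of miR-145-5p and has an entry from mouse, had 67 ovary reads and was 2.51-fold above intestine (1.74 to 3.62). Its reads are near copies of miR-145-5p, so its level is uncertain.

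miR-223-3p, a miRNA of the myeloid blood lineage, was the second most abundant name in ovary. It stood at 25893 CPM in ovary, against 3407, 4035 and 12899 CPM as the lowest, median and highest somatic level, and was 2.01-fold above heart (1.96 to 2.06). Of the other leukocyte names, miR-142a-5p was also above the somatic median and miR-146a-5p was not. miR-146a-5p stood at 625 CPM in ovary, against 508, 1845 and 5192 CPM. miR-142a-5p stood at 426 CPM in ovary, against 56.7, 135 and 412 CPM, while the precursor-only reads of miR-142a were at 52.1 CPM against 82.8 to 628 CPM. Of the 4 leukocyte names compared, 2 were thus above and 2 below the somatic median by 2-fold (backgrounds 25% and 36.6%). Without miR-145 in the totals 2 were above and none below, against 104 and 32 of all 200 names. The list summed to 27052 CPM in ovary, of which 25893 CPM was miR-223-3p, against 4985 to 15541 CPM in the somatic libraries. The red blood cell miRNAs lay inside the somatic range, with miR-451-5p at 21463 CPM in ovary against 2457 to 88061 CPM. The part of blood in the miR-223 level was not tested.

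The miR-199 and miR-214 hairpins, which lie together in a mesenchymal transcript in vertebrates, were split by arm. miR-199-5p stood at 22975 CPM in ovary, against 1465, 6667 and 29788 CPM as the lowest, median and highest somatic level, so that it exceeded every somatic library but liver. The precursor-only reads of miR-199, which carry the other arm and its seed, were at 9994 CPM in ovary against 3394, 21701 and 38394 CPM. miR-214-3p stood at 4129 CPM in ovary, against 233, 1569 and 4211 CPM. Of the 8 names of this list compared, 6 were at least 2-fold above the somatic median and 2 were at least 2-fold below it (backgrounds 25% and 36.6%). Both names below it hold the seed of the 3′ arm of miR-199. Without miR-145 in the totals the precursor-only reads of miR-199 were level with the somatic median, at a log2 ratio of 0.04. The precursor-only reads of miR-199a were 5.55-fold above liver (4.23 to 7.38) at 774 CPM, but their main ovary form is miR-199-5p with 1 more base at its 3′ end, so the 2 names split 1 miRNA by its end.

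Among less abundant names, miR-193-3p stood at 655 CPM in ovary, against 43.9, 131 and 248 CPM as the lowest, median and highest somatic level, and was 2.64-fold above slow muscle (2.20 to 3.17). miR-24c-3p had 285 CPM in ovary, against at most 107 CPM in heart, and shares the seed of miR-24-3p, which stood at 15793 CPM in ovary and 15004 CPM in heart. miR-20a-5p, with the seed of miR-17-5p, had 145.1 CPM in ovary and at most 59.3 CPM in slow muscle. For miR-193-3p, miR-24c-3p and miR-20a-5p the reads identical to a mature entry were not higher in ovary than in the highest somatic library, so these 3 results rest on reads with other ends.

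A further 3 names above all somatic libraries were 18-nt reads that end in CCA, as mature tRNAs do. The list that holds them was picked in an earlier look at these data. miR-2478-3p stood at 10026 CPM in ovary, against 243, 1027 and 2215 CPM, and 97.5% of its ovary reads were the sequence shown above. miR-2898-3p stood at 6659 CPM in ovary against 237 to 1786 CPM, and miR-1260-5p at 949 CPM against 49.7 to 328 CPM. Testis was higher than ovary for each, with 104235, 58141 and 7169 CPM. The entries matched were mammalian, mostly from cattle and hamster, and whether they are miRNAs in this fish was not tested.

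**Figure D2:**
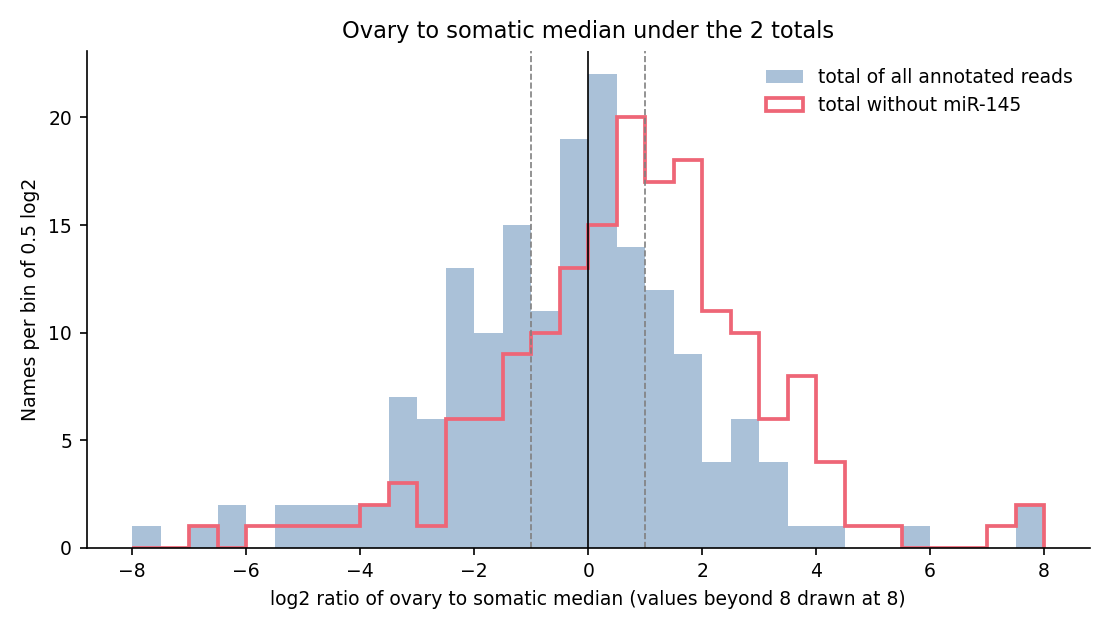
Distribution of the log2 ratio of ovary to the somatic median on the total of all annotated reads (filled) and on the total without miR-145 (outline), as names per bin of 0.5, for names at 100 CPM or more in ovary or as the somatic median other than miR-145 names. The dashed lines mark 2-fold, values beyond 8 are drawn at 8, and the outline lies further to the right than the filled bars.

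Of the names below every somatic library, miR-26-5p had the highest somatic median. miR-26 is a broadly expressed family in vertebrates. It stood at 1603 CPM in ovary, against 15786, 22995 and 32532 CPM as the lowest, median and highest somatic level, and was 9.85-fold below intestine, the lowest (9.20 to 10.6). Without miR-145 in the totals it was still 4.61-fold below the lowest somatic library. Testis had 1980 CPM.

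The paralogs miR-26 and miR-26b have the same seed and differ in their full forms by C21T, counted from the 5′ end, so only reads that reach that base tell them apart. Among those reads miR-26b made up 76.9% in ovary (95% Wilson interval 74.9 to 78.8; 1398 of 1818 reads), against 15.5% in eye, the lowest somatic share, and 26.4% in liver, the highest. Testis, with 78.3% (73.3 to 82.6), lay with ovary. This share does not depend on the total used. Reads with the base of miR-26 were at 781 CPM in ovary against 14239 to 30221 CPM, 18.2-fold below the lowest somatic library (16.5 to 20.2). Reads with the base of miR-26b were at 2600 CPM in ovary against 2616 to 9097 CPM, next to the lowest. By this base the leading member in ovary was thus miR-26b, while it was miR-26 in every somatic library. The base lies next to the 3′ end of the full forms, and whether the genome encodes both forms as read was not tested. Without miR-145 in the totals miR-26b-5p was level with the somatic median, at a log2 ratio of 0.01.

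**Figure D3:**
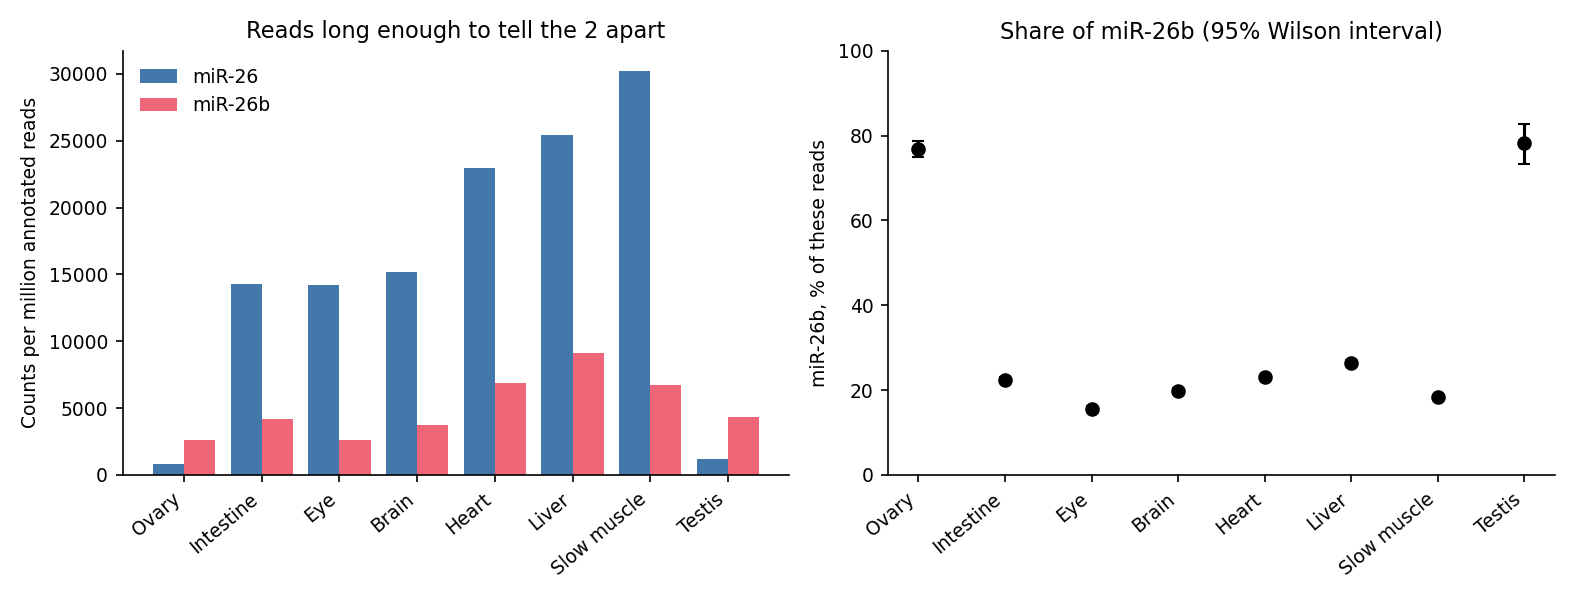
Left, reads of miR-26 and miR-26b that reach the base by which they differ, in reads per 1000000 annotated reads. Right, the share of miR-26b among these reads with its 95% Wilson interval, at 76.9% in ovary and 78.3% in testis against 15.5% to 26.4% in the somatic libraries.

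The length of miR-26-5p reads differed as well. Their mean was 20.1 nt in ovary, against 21.4 to 21.8 nt in the somatic libraries, the widest such gap of 104 names with at least 50 reads in each of the 7 libraries. The 22-nt form was at 216 CPM in ovary and 12916 to 28485 CPM in the somatic libraries, a 59.9-fold gap to the lowest. The 19-nt form was at 686 CPM in ovary and 1072 to 4688 CPM in the somatic libraries, only 1.56-fold below the lowest. This 19-nt form is also the start of miR-26b, so these reads, which the files list under miR-26, may belong to either paralog. In testis the mean was 20.4 nt.

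The let-7 family, which in animals is tied to differentiation and rises as cells mature, was low in ovary on the first total. Of 13 names compared, 8 were at least 2-fold below the somatic median (background 36.6%), 2 were above it and 3 were neither, with a median log2 ratio of -1.56 against -0.23 for all names. let-7a-5p stood at 3127 CPM in ovary, against 9570, 12963 and 18228 CPM as the lowest, median and highest somatic level, 3.06-fold below liver (2.89 to 3.24). let-7g-5p stood at 281 CPM in ovary, against 1314, 2201 and 4038 CPM, 4.68-fold below eye (3.91 to 5.63). let-7j-5p was 2.18-fold below slow muscle, and without miR-145 in the totals it was no longer below it. Of these, let-7g-5p stayed 2-fold below every somatic library on the total without miR-145. On that total 4 of 15 let-7 names were below the somatic median by 2-fold and 5 were above it. The counts for all 200 names were 32 and 104. The 2 let-7 names above the median on the first total were let-7b-3p and the precursor-only reads of let-7b, at 201 and 593 CPM in ovary against at most 134 and 298 CPM. The summed let-7 list was at 9800 CPM in ovary and 22088 to 36444 CPM in the somatic libraries. Without miR-145 in the totals the sum was at 23558 CPM in ovary, inside the somatic range of 22952 to 40434 CPM.

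In the miR-130 and miR-301 family, the 3 names with the seed of miR-130-3p shown above were at least 2-fold below the somatic median, and the fourth name compared, the precursor-only reads of miR-130b, has another seed and was not. Of all names, 36.6% were below by 2-fold on the first total. On the total without miR-145, 2 of the 4 were below and 1 was above, against 32 and 104 of all 200 names. miR-130-3p had 29 reads or 53.9 CPM in ovary, against 203.5, 3595 and 6617 CPM, which was 3.77-fold below liver (2.46 to 5.95) and much further below the other somatic libraries. It was at 2860 CPM in testis. Without miR-145 in the totals miR-130-3p was no longer 2-fold below liver. miR-301-3p stood at 595 CPM in ovary, inside the somatic range of 509 to 3631 CPM. miR-130b showed an arm difference, with its 3′ arm at 53.9 CPM in ovary against 114 to 639 CPM and its precursor-only reads at 670 CPM against 119 to 894 CPM.

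In the miR-29 and miR-30 families, 7 of 9 names were at least 2-fold below the somatic median (background 36.6%), with a median log2 ratio of -1.38. miR-29b-3p stood at 1706 CPM in ovary, against 4912, 7576 and 14869 CPM, and was 2.88-fold below slow muscle (2.68 to 3.10). On the total without miR-145 only 1 of 10 names of these families was below the median by 2-fold, against 32 of all 200 names. Their place thus depends on the scale. miR-101a-3p stood at 259 CPM in ovary and 785 to 1857 CPM in the somatic libraries, 3.04-fold below eye (2.49 to 3.72). Without miR-145 in the totals it was no longer 2-fold below eye. miR-27e-3p had 50.2 CPM in ovary against 450 to 1169 CPM, 8.96-fold below slow muscle (6.04 to 13.8). It shares a seed with miR-27b-3p, at 1075 CPM in ovary against 376 to 3294 CPM, and with miR-27c-3p, at 1259 CPM against 207 to 1082 CPM, so only 1 lettered member of that family lay below every somatic library. The precursor-only reads of miR-139 were at 20.5 CPM in ovary against 249 to 2754 CPM, 12.1-fold below eye (6.54 to 25.01). Without miR-145 in the totals these reads and miR-27e-3p stayed at least 2-fold below every somatic library.

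miRNAs that mark neurons, striated muscle, liver and gut were at low levels in ovary. miR-124-3p, a neuronal miRNA, had no read in ovary, against 104 CPM in intestine, 467 CPM as the somatic median and 264089 CPM in eye, and was at least 18.7-fold lower than in intestine. miR-9-5p, also neuronal, had none, against 31313 CPM in brain. miR-499-5p, which lies within a myosin gene in vertebrates, had none, against 23346 CPM in heart. miR-1-3p stood at 696 CPM in ovary, against 169, 6813 and 192944 CPM. miR-122 names, the main liver miRNA, summed to 102.3 CPM in ovary, against 153530 CPM in liver and a somatic median of 43.9 CPM. miR-192-5p, abundant in gut and liver, stood at 592 CPM in ovary and 352792 CPM in intestine. All 6 muscle names, all 4 neural names and both digestive names compared were at least 2-fold below the somatic median, against 36.6% of all names. These lists hold 25, 43 and 8 names. Names without ovary reads, such as miR-124-3p and miR-499-5p, entered only through their somatic median. Their place below it was set by that rule, so these counts do not test the lists. Without miR-145 in the totals 4 of 7 muscle names were below and 1 was above, 3 of 4 neural names were below, and both digestive names were. The counts for all 200 names were 32 below and 104 above. One muscle name, miR-1c-3p, was above the median (log2 ratio 0.52) when eye, heart or slow muscle was left out. In all, 50 names at 100 CPM or more in a somatic library had no ovary read, and 22 of these were highest in eye and 14 in brain. How many of all names at that level were highest in eye or brain was not counted, so these counts have no background.

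The eye miRNA miR-204a-5p and its paralog split. miR-204a-5p had 40.9 CPM in ovary, against 197, 1004 and 98278 CPM, and was 4.82-fold below intestine (3.11 to 7.83). miR-204b-5p had 199.0 CPM in ovary, below eye (4152 CPM) and brain (6876 CPM) and above the other 4 somatic libraries, where it had at most 24.8 CPM.

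**Figure D4:**
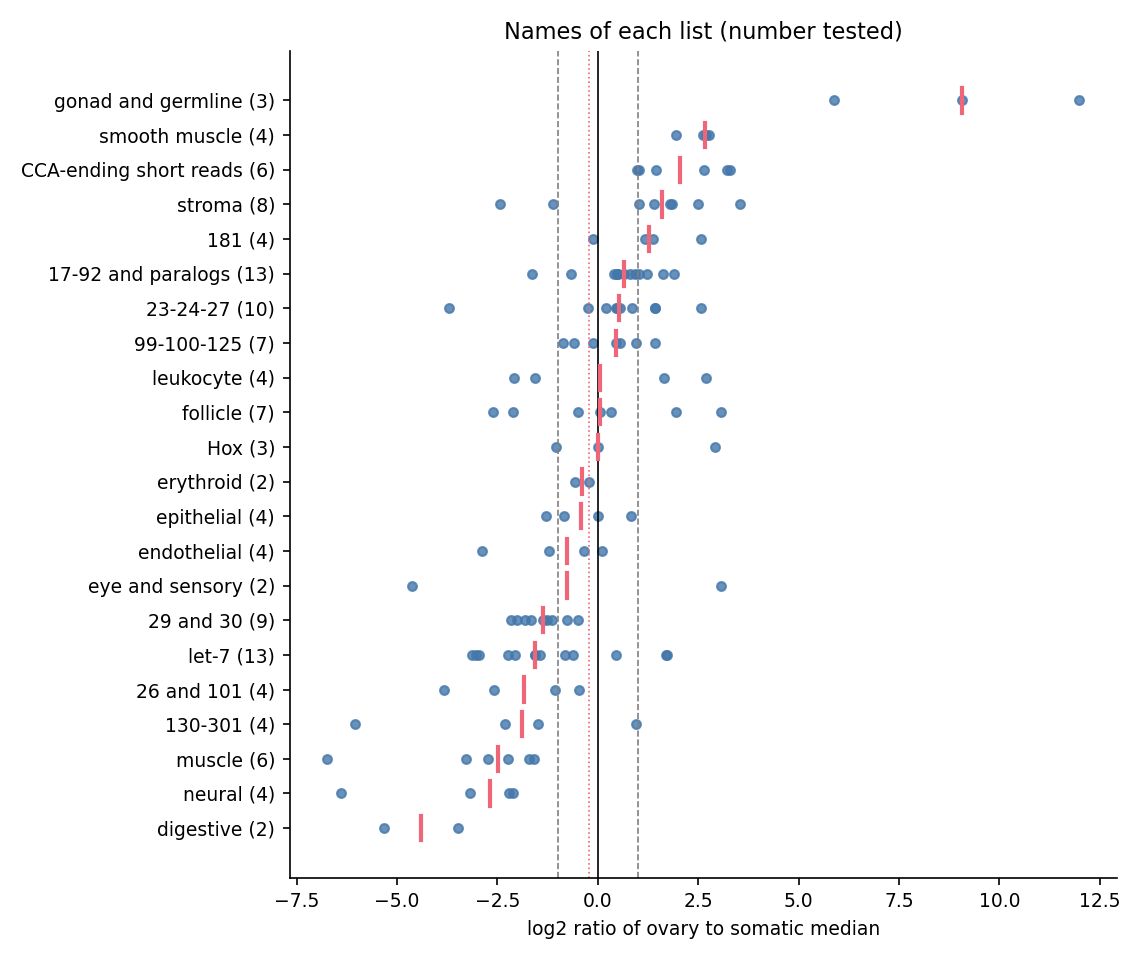
Log2 ratio of ovary to the somatic median for each name (points) of the lists with 2 or more names compared, with their number in brackets, the median of each list as a red bar, dashed lines at 2-fold and a dotted line at the median of all names (-0.23; 1.09 when miR-145 is left out of the totals). The gonad list (miR-202) lies farthest right, and the neural, muscle and digestive lists lie left.

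The miR-17, miR-19 and miR-92 clusters are linked to cell proliferation in vertebrates. Of 13 names, 4 were at least 2-fold above the somatic median and 1 below it (backgrounds 25% and 36.6%), with a median log2 ratio of 0.66, while 8 were neither. With miR-145 left out, 15 of 17 were above and none below, against 104 of all 200 names above, with a median of 1.99 against 1.09. miR-17-5p stood at 13682 CPM in ovary, against 3718, 8670 and 11642 CPM as the lowest, median and highest somatic level, 1.18-fold above liver (1.13 to 1.22). miR-92-3p stood at 5621 CPM in ovary against 1295 to 5196 CPM, and miR-25-3p at 988 CPM against 154 to 967 CPM. miR-19b-3p stood at 20806 CPM in ovary, inside the somatic range of 8337 to 43584 CPM. miR-18-5p went the other way, at 262 CPM in ovary and 493 to 2474 CPM in the somatic libraries. The summed list was at 53113 CPM in ovary and 20606 to 85082 CPM in the somatic libraries, and at 195214 CPM in testis. Without miR-145 in the totals the sum was at 127673 CPM in ovary, above the somatic range of 21412 to 95813 CPM.

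The miRNAs studied in mammalian follicle cells did not stand out together. Of 7 names compared, 2 were above and 2 below the somatic median by 2-fold, with a median log2 ratio of 0.04, against 25% above and 36.6% below for all names. On the total without miR-145, 5 of 9 were above and 2 below, with a median of 1.19. For all 200 names these were 104, 32 and 1.09. miR-21-5p stood at 2416 CPM in ovary, inside the somatic range of 229 to 7144 CPM. miR-22a-3p, the third most abundant ovary name, stood at 24915 CPM in ovary against 16130 to 123365 CPM. miR-132-3p, induced by neuronal activity and by luteinising hormone in mammals, had 203 CPM in ovary, below eye (253 CPM) and brain (2698 CPM) and above the other 4 libraries, where it had at most 32.3 CPM. miR-31-5p had 1 ovary read. Of miR-430, a family of the early fish embryo, miR-430a-3p had 6 ovary reads, or 11.2 CPM.

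In the miR-181 family, 3 of 4 names were at least 2-fold above the somatic median, against 25% of all names. Without miR-145 in the totals it was likewise 3 of 4, against 104 of all 200 names. Among the names above the median on the first total, miR-181a-3p and the precursor-only reads of miR-181a have the same seed in ovary. On the study's total both were below the somatic median. miR-181b-5p stood at 193 CPM in ovary, against 8.28, 32.4 and 273 CPM. In the miR-99, miR-100 and miR-125 families 1 of 7 names was above by 2-fold and none below (backgrounds 25% and 36.6%). Without miR-145 in the totals 6 of 10 were above and none below, against 104 and 32 of all 200 names. miR-100-5p and miR-125b-5p were among the 10 most abundant ovary names at 22622 and 21669 CPM, inside their somatic ranges of 5665 to 73799 and 3277 to 49563 CPM. The endothelial miR-126a-3p stood at 15353 CPM in ovary against 13250 to 117664 CPM, and the epithelial miR-200a-3p at 835 CPM against 477 to 63866 CPM.

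The share of the 2 arms of a hairpin can be read within a library and does not depend on the total. For 35 miRNAs, 1 arm held at least 95% of the reads matched to a mature entry, and precursor-only reads that did not lie on it were added to any mature reads of the other arm, a comparison chosen after the data had been seen. Each had at least 50 reads of both arms in the ovary library and in every somatic library, and at least 200 precursor-only reads off the main arm over these libraries. The 5′ share in ovary lay outside the somatic range for 20 of the 35, by over 10 percentage points for 10. For miR-145 and miR-125a it was outside by only 0.05 and 0.09 points. Some library is outermost for every miRNA, and how often each somatic library was so was not counted, so the 20 have no background. miR-142a had 94.2% of its 257 reads on the 5′ arm in ovary (95% Wilson interval 90.6 to 96.4), against 37.9%, 42.8% and 48.4% as the lowest, median and highest somatic share. miR-455 had 8.24% of 1286 reads on the 5′ arm in ovary (6.86 to 9.87), against 33.2%, 41.3% and 59.1%. These 2 moved in opposite directions, to the 5′ arm in miR-142a and to the 3′ arm in miR-455.

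miR-199 had 70.5% of 17736 reads on the 5′ arm in ovary (69.8 to 71.1), against 20.04%, 23.6% and 55.4%, so the arm that led in ovary was the minor one in 5 somatic libraries. miR-126 had 8.58% on the 5′ arm in ovary (7.72 to 9.52), against 23.6% to 37.7%. miR-130b had 92.7% (89.6 to 94.8), against 49.0% to 77.2%. The 5′ arm, the main strand of let-7, had a lower share in ovary for let-7b, let-7a and let-7d. It was 58.2% for let-7b against 72.7% to 92.3%, 84.7% for let-7a against 95.6% to 98.8% and 81.9% for let-7d against 95.2% to 98.01%. For let-7g it lay inside the somatic range at 94.97%. For let-7h it was 40.5%, with an interval (30.1 to 51.9) that holds the lowest somatic share of 47.1%. Testis had at least 50 reads for 11 of the 20 miRNAs. In 10 of those it lay outside the somatic range on the same side as ovary, with 83.6% for miR-199, 3.67% for miR-455 and 4.51% for miR-126. For miR-22a, miR-462, miR-23a, miR-107, miR-125a and miR-145 among these the ovary gap was small. It was widest for miR-22a, at 0.95% in ovary against a lowest somatic share of 2.01%. For let-7b the testis interval (51.8 to 74.7) holds the lowest somatic share. For let-7a testis lay inside the somatic range, at 97.9%. Testis was also outside that range for miR-24, miR-30c, miR-30d and miR-338, where ovary was inside. How often testis was outside over all 35 miRNAs was not counted, so the 10 have no background. miR-142a had 91.4% of only 35 testis reads on the 5′ arm. miR-130b went the other way, with 38.9% of only 18 testis reads (20.3 to 61.4), an interval that holds the lowest somatic share of 49.0%. Gonad and library preparation of the 2 gonads cannot be told apart here.

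**Figure D5:**
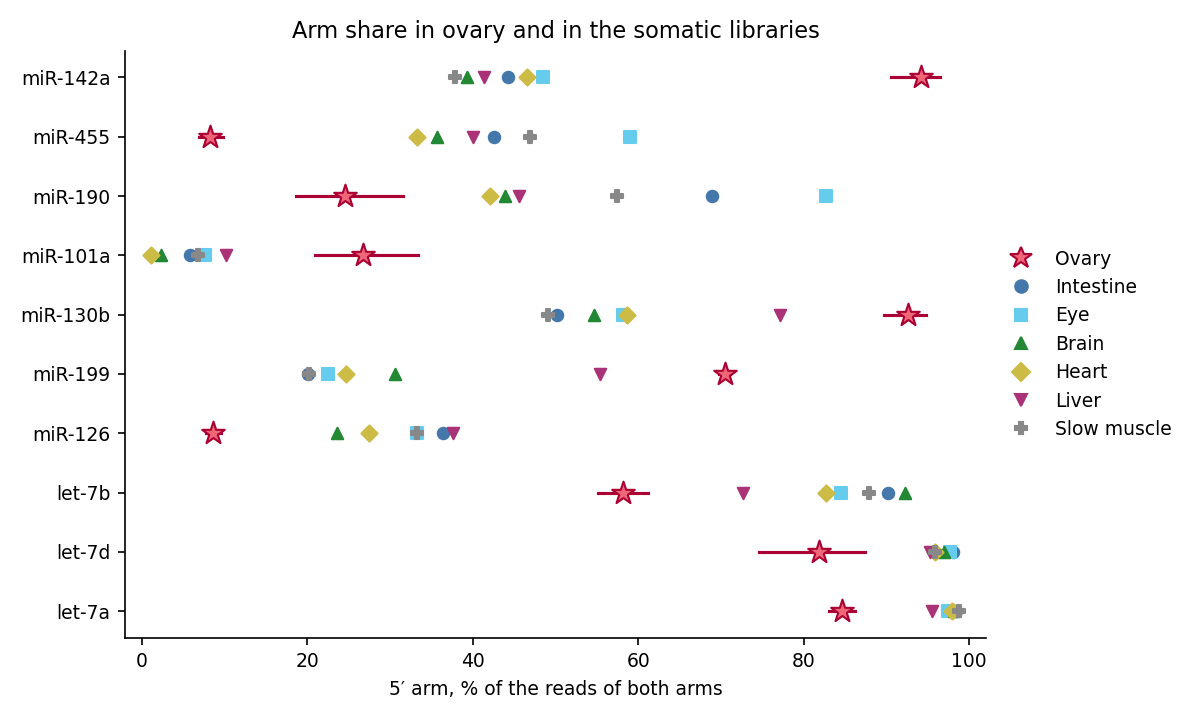
Share of 5′ arm reads among the reads of both arms for the 10 miRNAs whose ovary value lay furthest outside the somatic range, in percent, with stars for ovary (lines, 95% Wilson interval) and 1 symbol per somatic library. miR-142a, miR-130b, miR-199 and miR-101a lie to the right of all somatic symbols and the other 6 to the left.

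Among 22 miRNAs with reads of both arms matched to mature entries, counted without precursor-only reads, the ovary share lay outside the somatic range for 12. It was outside by over 5 percentage points for 2, and here too the somatic libraries were not counted in the same way. Of these miRNAs 8 are also among the 35 above, where precursor-only reads change the share: for miR-199 it was 99.9% without them in ovary and 70.5% with them. miR-140 had 31.2% of 244 mature reads on the 5′ arm in ovary (25.7 to 37.2), against 54.9% to 79.3% in the somatic libraries and 65.0% of 60 reads in testis. Its precursor-only reads, 738 in ovary, outnumbered these, so which arm led in a library cannot be read from this share. miR-181a had 51.1% of 788 mature reads on the 5′ arm in ovary (47.7 to 54.6), against 61.6% to 85.2%. The precursor-only reads of miR-181a, at 322 CPM in ovary against 42.8 to 297 CPM, are left out as well, and their main ovary form has the seed of miR-181a-3p.

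Read ends were compared for the 104 names with at least 50 reads in each library. The most common ovary sequence was also the most common in all 6 somatic libraries for 63 of them, in some for 31 and in none for 10. The mean length in ovary was above all somatic means for 16 names and below all for 27. Ovary was thus outermost for 43 names, against 46 for brain, 36 for liver and 16 to 24 for the other 4 somatic libraries. For the share of reads at the 5′ start of the main ovary sequence, ovary was outermost for 57 names against 19 to 31 for the somatic libraries, but the measure was built on the ovary sequence.

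The 5′ start decides the seed. miR-210 precursor-only reads started at the main position in 63.6% of the ovary reads, against 89.2% to 92.96% in the somatic libraries and 87.5% in testis. miR-455-5p started at the first base of its main ovary sequence in 34.9% of the ovary reads, against 3.96% to 10.2% in the somatic libraries, although the position 2 bases upstream was the most common in all 7. miR-126-3p started at its main position in 63.4% of the ovary reads against 71.9% to 75.3%.

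Differences at the 3′ end were wider. miR-138-5p ended at the 24-nt position in 58.9% of 90 ovary reads and in 57.0% of 151 testis reads, against 8.64% to 14.4% of the somatic reads. miR-214-3p ended at its 22-nt position in 66.9% of the ovary reads and 22.2% to 38.5% of the somatic reads. miR-451-5p, which is cut without Dicer in vertebrates and then trimmed, was shorter in ovary, with a mean of 21.4 nt against 21.7 to 21.9 nt and a 21-nt main form against 22 nt in each somatic library. By the share of reads at the 3′ end of the main ovary sequence, ovary was outermost for 54 names against 20 to 36 for the somatic libraries, but this measure too was built on the ovary sequence. Of the 30 of these names with at least 50 testis reads, 23 were outside on the same side in testis, 2 on the other side and 5 within the range. How often testis was outside for the other names was not counted, so the 23 have no background. As with the arms, gonad and library preparation cannot be told apart.

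Reads in ovary with none in any somatic library were few. They fell under 22 names, of which 20 had 5 reads or fewer, and the other two were miR-202-5p and miR-202-3p. Across names at 100 CPM or more in either library of a pair, the Spearman correlation with ovary was highest for heart (0.60, 184 names) and lowest for eye (0.31, 205 names), and it was 0.64 with testis (179 names). These are descriptions across names that share libraries and the weight of miR-145.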

How the data were processed

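The authors sequenced small RNAs on SOLiD and matched the reads of 18 to 25 nt to miRBase 19.0 in CLC Genomics Workbench. Each deposited file holds counts of whole reads per distinct sequence, with the entry name, its species and the match type. It holds only sequences that matched an entry without mismatch. The paper also counted reads that met looser criteria as miRNAs, so levels here are not of all reads it called miRNA. Its match to mature entries allowed only a few bases more or less at either end, which limits the ends and lengths compared. The aligner version and a genome build are not given in the sources used here. Counts were summed by miRNA name, with the copy suffix removed, and by arm, and scaled to the file's summed count. With 1 library per tissue there is no test. Names with 0 reads were put at 3 reads for ratios. A call needed 2-fold and 100 CPM on the higher side. Ratios carry exact 95% Clopper-Pearson intervals and shares Wilson intervals, for counting error only. A read was placed on the main ovary sequence with an overlap of 14 nt, a shift of up to 4 nt and 1 mismatch. Named were the 10 most abundant ovary names, the 12 furthest above and below, list members at 100 CPM, and up to 8 arms by end, length or arm share. The lists and names were chosen with earlier results of these data known. The comparison was also run on simulated reads in which all somatic libraries shared the same profile and some ovary names were changed by a set fold. That setting leaves out the differences among somatic tissues, and no result here rests on it. Total reads were 437295 to 1207961 in the somatic libraries and 537629 in ovary, so lower counts carry wider intervals. Tools were python 3.11.15, pandas, numpy, scipy and edgeR, the last only for TMM factors.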

Additional observations from a re-analysis of the deposited data

How the results depend on the processing

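No paired analysis was possible because each tissue had 1 library. The 14 names above and 15 below every somatic library, and the 43 above and 63 below the somatic median, depended on the total and limits. With miR-145 left out they were 40, 6, 104 and 32, since that alone raises every other ovary level, and the effective number of names was 52.62. On the study's total 2 were above and 27 below every library, and 7 were above and 94 below the median. With each total multiplied by its TMM factor these counts were 14, 17, 41 and 63. Of reads identical to a mature entry, 8 were above every library and 23 above the median. At 10 CPM the counts were 22, 26, 76 and 119, at 1000 CPM 7, 6, 17 and 28, and at 4-fold 5, 6, 21 and 38. Leaving out 1 somatic library gave 15 to 17, 16 to 22, 42 to 49 and 52 to 67. With 200 reads or more, length was outside the somatic range for 24 of 56 names and the 5′ start for 35 of 56. With precursor-only reads as the other arm, an alternative chosen after seeing the data, arm share was outside for 20 of 35.

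Most values of named miRNAs moved without turning round on the study's total and on the total without miR-145. Of 1707 values under all alternatives, 45 turned round. Only values at least 2-fold at first could be counted so, and this count does not show that the others were stable. The values that turned round follow. On the study's total the log2 ratio to the highest somatic library was -0.0286 for miR-143-3p, -0.10 for miR-1260-5p, -0.21 for miR-24c-3p, -0.34 for miR-193-3p, -0.32 for miR-145b-5p, -0.447 for miR-20a-5p and -0.63 for miR-223-3p. That to the median was -0.22 for miR-24-3p, -0.579 for miR-199b-5p, -0.20 for miR-214-3p, -0.46 for miR-92-3p, -0.66 for miR-92b-3p, -0.28 for miR-27c-3p, -0.01403 for miR-142a-5p, -0.21 for miR-99b-5p, -0.48 for miR-181a precursor-only, -0.36 for miR-181a-3p, -0.39 for miR-462-5p, -0.583 for miR-4286-3p and -0.14 for miR-4286-5p. With identical reads only it was -0.86 for miR-24c-3p, -1.96 for miR-193-3p and -1.76 for miR-20a-5p against the highest, and -1.02 for miR-199a-5p, -0.51 for miR-142a-5p, -5.15 for miR-99b-5p, 0.26 for miR-133-3p and 0.0763 for miR-10b-5p against the median. With arms summed it was 0.45 for miR-126, 0.59 for miR-22a and 1.61 for miR-130b against the lowest, and 0.22 for miR-199 and 0.40 for miR-142a against the median. Without miR-145 it was 0.05305 for let-7j-5p and 0.01008 for miR-130b-3p against the lowest, and 0.03822 for miR-199 precursor-only, 0.00795 for miR-26b-5p, 0.05387 for miR-29d-3p and 0.16 for miR-10b-5p against the median. Against the median it was -2.42 to 0.52 for miR-1c-3p with 1 library left out, positive without eye, heart or slow muscle, and -1.83 to 0.76 for miR-10b-5p, positive without intestine, brain or slow muscle. Apart from the constructions named, the cause was not tested.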
